A study of Mus musculus with 16 samples.

Results

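Interferon-stimulated genes are the antiviral effectors that cells switch on when interferon reaches them. A named list of 49 of them was followed here in haematopoietic stem cells of mice given long courses of palbociclib, rapamycin or both. The genes were taken by name, as Ensembl gene IDs matched to symbols. All 49 of 49 were found among the 50686 genes of the deposited tables, and all 49 stayed among the 15308 genes that passed a filter on low counts and were tested.

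RNA was measured in 16 libraries of sorted bone marrow stem cells from C57BL/6J mice, 4 libraries in each of 4 groups. Combination mice received palbociclib at 30.4 mg/kg with rapamycin at 6.4 mg/kg, palbociclib mice and rapamycin mice received the same dose of the one drug, and vehicle mice received the solvent alone. Every group was injected into the peritoneum with 100 µL of 20% DMSO and 40% PEG 400 in PBS, once per 48 h over 85 days. Palbociclib (labelled PD) inhibits the cell cycle kinases CDK4 and CDK6, and rapamycin inhibits the growth kinase complex mTORC1. The cells were stained for CD150, CD48, Sca-1 and CD117, and 10000 in G0/1 were sorted for RNA, per the labels' protocols. The labels used here give neither age nor sex of the mice, and nothing says that each library is a separate animal, so the p-values below measure the spread between libraries, which may be partly technical.

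Type I interferons bind the receptor IFNAR, whose kinases phosphorylate STAT2 and other signalling proteins. STAT2 and IRF9 are parts of a complex that binds the interferon-stimulated response element (ISRE) in the promoters of its target genes, while the signal of interferon gamma reaches its targets through another element, the gamma-activated site (GAS). The targets sense foreign nucleic acid, cut or block viral RNA, restrict viral entry and budding, and tune the signal itself. Stem cells are known to express a basal set of these genes without infection, and interferon is known to push resting haematopoietic stem cells into the cycle.

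Promoter sequence is shown first, for genes whose values the results below turn on. Genes were taken by smallest p in combination against vehicle within a role class, and only sequences with an ISRE match are printed. Epsti1 and Oasl2, taken by the same rule, held no match and are left out, so the printed sequences do not show how common the element is. A RefSeq table of promoters on GRCm38.p6, covering 250 bases before and 50 bases after each gene's start, held 37 of the 49 genes. Mx1, Mx2, Oas2, Usp18, Ifi27, Ifi27l2a, Iigp1, Rtp4, Dhx58, Parp9, Parp14 and Zbp1 were not matched. The core of the ISRE was searched as GAAANNGAA on both strands, and the GAS as TTCNNNGAA, which reads the same on both strands. Below are the 250 bases before the start, 5′ to 3′ on the gene's strand, with ISRE core matches in capitals, where overlapping matches run together.
Rsad2, chr12:26456453-26456702, minus strand: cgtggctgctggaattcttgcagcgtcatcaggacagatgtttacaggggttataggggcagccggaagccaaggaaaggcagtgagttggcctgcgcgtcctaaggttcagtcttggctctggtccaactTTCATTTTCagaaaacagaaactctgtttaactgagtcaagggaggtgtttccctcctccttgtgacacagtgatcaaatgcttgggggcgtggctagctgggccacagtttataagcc
Bst2, chr8:71537473-71537722, minus strand: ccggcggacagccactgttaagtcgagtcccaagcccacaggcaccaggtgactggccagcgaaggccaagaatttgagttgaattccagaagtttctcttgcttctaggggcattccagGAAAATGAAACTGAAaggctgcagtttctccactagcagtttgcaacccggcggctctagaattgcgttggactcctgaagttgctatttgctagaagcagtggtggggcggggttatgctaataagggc
Irgm1, chr11:48871421-48871670, minus strand: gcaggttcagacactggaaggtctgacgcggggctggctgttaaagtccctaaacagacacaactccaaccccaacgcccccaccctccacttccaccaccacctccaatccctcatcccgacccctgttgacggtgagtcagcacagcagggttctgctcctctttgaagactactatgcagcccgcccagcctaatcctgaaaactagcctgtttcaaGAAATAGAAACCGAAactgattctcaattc
Ifit3, chr19:34583279-34583528, plus strand: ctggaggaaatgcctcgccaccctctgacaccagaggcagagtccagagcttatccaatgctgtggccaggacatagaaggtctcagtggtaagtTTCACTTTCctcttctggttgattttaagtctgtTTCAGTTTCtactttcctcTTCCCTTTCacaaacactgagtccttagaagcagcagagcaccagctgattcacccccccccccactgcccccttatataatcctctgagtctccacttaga

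Rsad2, which encodes the antiviral enzyme viperin, held 1 match on the opposite strand, ending 111 bases before the start. Bst2, which encodes tetherin, a protein that holds budding virions at the cell surface, and Irgm1, an immunity-related GTPase, each held 2 overlapping matches. Those of Irgm1 ended 22 and 16 bases before the RefSeq start, and those of Bst2 122 and 116 bases before it. In GENCODE, Irgm1 extends to chr11:48871683, past the far end of its printed window, so its distances hold for the RefSeq start only. Ifit3, whose protein belongs to a family that binds foreign RNA, held 3 matches, ending 147, 113 and 94 bases before the start. Over the 300-base windows, 22 of the 37 genes held the ISRE core (59.5%), against 9.76% of the 27025 genes of the table. At least 2 matches were found in 13 of the 37 (35.1%), against 0.736% of all genes. The GAS was in 8 of the 37 (21.6%), against 9.55% of all genes. The windows of Epsti1 and Oasl2 held neither. A match of letters describes the sequence and is no evidence of binding.

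The genes also share positions. Within 1000000 bases of one another lay 10 groups of neighbours on GRCm38, the build mm10. The 4 Ifit genes sat together at chr19:34550694-34650009, Oas2, Oas3 and Oas1a at chr5:120730333-120907521, and Gbp7, Gbp3 and Gbp2 at chr3:142530342-142638008. Rsad2 and its neighbour Cmpk2, a nucleotide kinase, shared chr12:26442746-26479837. Estimated counts divide reads between near-identical copies, so Ifit3 and Ifit3b, and Oas1a and its neighbouring copies, are uncertain as single genes.

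In vehicle stem cells the 49 genes covered a wide range of levels, compared here per length in TPM, a unit that scales transcripts to a fixed total. Ifitm3, a membrane protein that blocks virus entry, averaged 1995 ± 510 TPM (SD, n = 4) and made up 58.6% of the 3403 TPM that the 49 genes held together. Next came Lgals3bp, a secreted galectin-binding glycoprotein, at 170 ± 40.4 TPM, Ifi27, a small mitochondrial and nuclear membrane protein, at 164 ± 49.05, and Bst2 at 111 ± 19.9. The ranges of these 3 genes over libraries overlapped, so their order was not resolved. Between 10 and 100 TPM lay 24 genes and under 10 TPM lay 21, of which Ifit3b, Mx2 and Mx1 were under 1 TPM. Mx1 and Mx2 belong to a family of dynamin-like GTPases. The Mx1 gene of C57BL/6 mice is known to carry a deletion and to make no functional protein. GENCODE lists Mx2 as a polymorphic pseudogene.

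**Figure D1:**
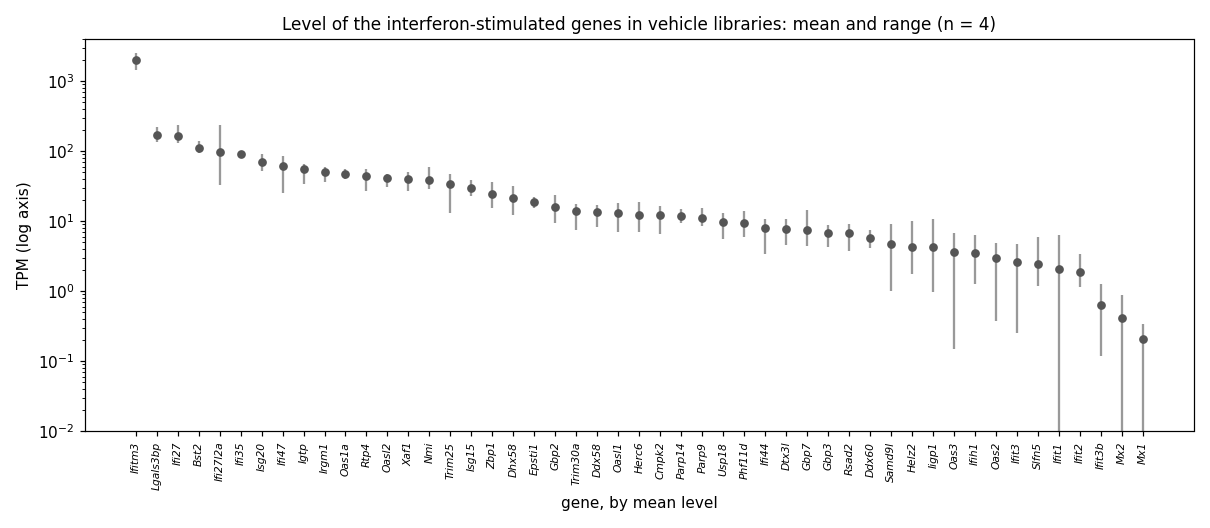
Level of each of the 49 genes in vehicle libraries, in TPM on a log axis, with the mean as a point and the lowest and highest of 4 libraries as a line. Lines that reach the lower edge run to values at or near 0. Ifitm3 lies about an order of magnitude above the next genes, and 21 of the 49 genes average under 10 TPM.

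Stem cell identity and other cell types were checked against marker lists. All 12 stem cell markers listed were detected in each group, and they held 0.168 to 0.276% of counts in combination, 0.113 to 0.23% in palbociclib, 0.175 to 0.276% in rapamycin and 0.136 to 0.279% in vehicle libraries. Of the 12, 11 were lower in palbociclib than in vehicle cells, 2 at an unadjusted p under 0.05, and 11 were higher in combination than in palbociclib cells, also 2 at that p. Total counts ran from 10133860 to 15328830 per library. Neutrophil granule genes held 4.08 ± 2.76% of counts in combination, 6.45 ± 3.70% in palbociclib, 4.38 ± 2.48% in rapamycin and 3.65 ± 2.40% in vehicle libraries (SD, n = 4 each). B cell genes held 0.357 ± 0.313%, 0.593 ± 0.426% and 0.0662 ± 0.0640% in combination, palbociclib and rapamycin libraries, against 1.13 ± 1.46% in vehicle libraries, where vehicle 4 alone had 3.26%. T and NK cell genes held 0.0138 to 0.0458% in combination, 0.015 to 0.061% in palbociclib, 0.0162 to 0.0427% in rapamycin and 0.0151 to 0.0687% in vehicle libraries, and erythroid genes 0.0892 to 0.141%, 0.0725 to 0.295% and 0.231 to 0.384% in combination, palbociclib and rapamycin libraries, against 0.0781 to 0.334% in vehicle libraries. None of the 17 neutrophil, 11 B cell, 14 T and NK cell or 13 erythroid markers was at 0 in all 16 libraries. In bulk RNA, fewer cells of a type and less RNA per cell cannot be told apart. Rapamycin 3 correlated at 0.877 to 0.879 with the other rapamycin libraries, which correlated with one another at 0.913 to 0.924. With the other vehicle libraries, vehicle 3 correlated at 0.843 to 0.868, vehicle 4 at 0.843 to 0.880 and vehicle 1 at 0.845 to 0.895. Correlation thus did not set vehicle 4 clearly apart. Values without vehicle 3, vehicle 4 and rapamycin 3 are given below.

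The summary level of the 49 genes, the mean of their log2 CPM, the count scaled to library size with TMM factors, was 5.34 ± 0.53 in combination, 4.73 ± 0.74 in palbociclib, 4.15 ± 0.24 in rapamycin and 4.28 ± 0.26 in vehicle libraries (SD, n = 4 each). Combination libraries 3 and 4 had the highest means, 5.82 and 5.71, followed by palbociclib 3 and 4 at 5.48 and 5.26. Combination 1 and 2 had 5.16 and 4.66, and every other library lay between 3.88 and 4.55. All 4 combination libraries were thus above all rapamycin and vehicle libraries. Palbociclib libraries fell on both sides, with palbociclib 1 and 2 at 4.08 and 4.10, inside the vehicle range of 4.05 to 4.55.

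Gene by gene the same libraries led. Combination 3 had the highest value of all 16 libraries for 21 of the 49 genes and combination 4 for 11. A combination library was highest for 34 genes, a palbociclib library for 5, a rapamycin library for 3 and a vehicle library for 7. For 46 genes a single library was lowest, a combination library for 0 of them, a palbociclib library for 9, a rapamycin library for 18 and a vehicle library for 19. For Ifit3b, Mx1 and Mx2 several libraries were tied at 0 counts, combination 2 among them for Mx1 and Mx2. Palbociclib 3 and 4 were both above palbociclib 1 and 2 for 40 of 49 genes, and combination 3 and 4 above combination 1 and 2 for 36. These pairs were picked after their levels were seen. None of the counts in this paragraph was made over all genes, so they are not shown to be particular to the 49. The genes were also more variable between libraries of a group than genes at large. Their median within-group SD was 0.64 on the log2 CPM scale, against 0.55 for all tested genes, and at a mean of 4 to 6 log2 CPM it was 0.65 for 23 of these genes against 0.41 for 4521.

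**Figure D2:**
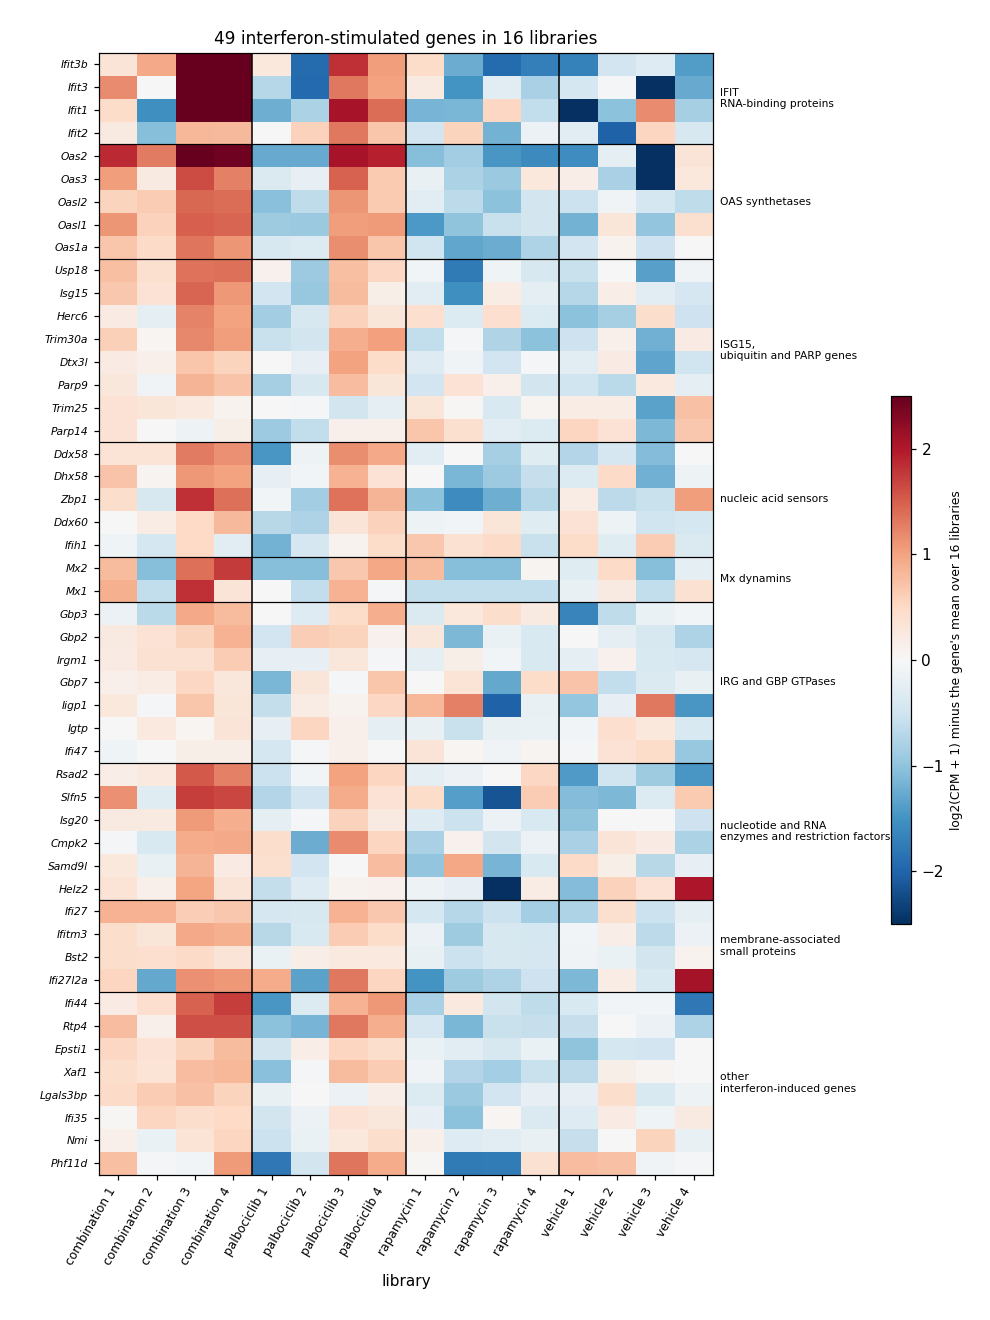
Each row is one of the 49 genes, grouped by role, and each column a library. Colour gives log2(CPM + 1) minus the gene's mean over 16 libraries, cut at 2.5 in either direction. Combination 3 and 4 and palbociclib 3 and 4 are the reddest columns, and IRG and GBP genes, with a median log2 fold change of 0.32 in combination against vehicle, form the sixth block.

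Within the combination group, the shares of neutrophil and B cell genes had the same order as the mean of the interferon-stimulated genes. Combination 3, 4, 1 and 2 had neutrophil shares of 7.34, 5.24, 2.64 and 1.09% and B cell shares of 0.732, 0.467, 0.223 and 0.00571%. Monocyte and macrophage shares had that order too, at 0.602, 0.533, 0.373 and 0.221%. Stem cell marker shares had the opposite order, at 0.168, 0.206, 0.219 and 0.276%. Palbociclib 3, 4, 2 and 1, in the order of their gene means, had neutrophil shares of 8.40, 6.33, 1.305 and 9.74% and B cell shares of 1.06, 0.703, 0.0353 and 0.572%. Palbociclib 1 thus had the highest neutrophil share of the 16 libraries with a low gene mean. In the same order, palbociclib libraries had monocyte and macrophage shares of 0.721, 0.507, 0.310 and 1.22%. Their stem cell marker shares were 0.128, 0.153, 0.230 and 0.113%. The part of monocyte and stem cell RNA was not tested. With the log2 shares of both lists as covariates in the model, the median log2 fold change of combination against vehicle was 1.00, beside 0.90 without them.

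**Figure D3:**
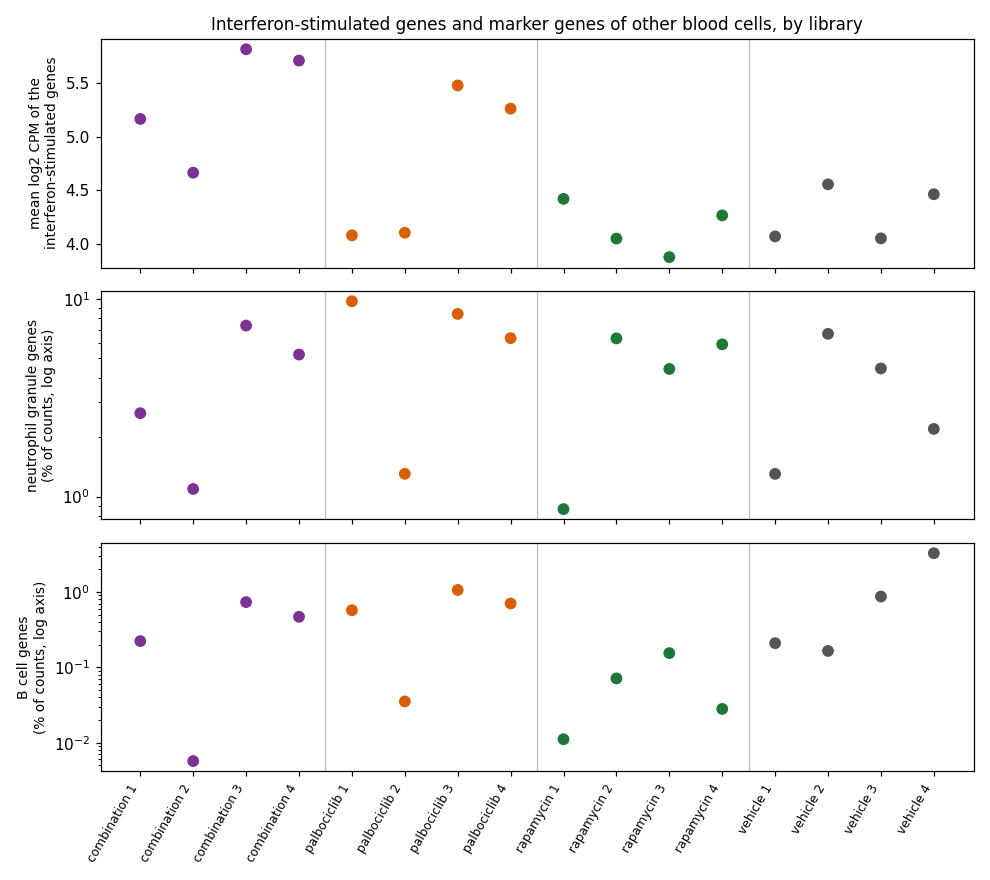
The upper panel gives the mean log2 CPM of the 49 genes per library, the middle and lower panels the percent of counts in neutrophil granule and B cell genes on log axes. In combination libraries the 3 panels have the same order, and palbociclib 1 combines the highest neutrophil share, 9.74%, with a low gene mean of 4.08.

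The first comparison asked what both drugs together did to these genes. Most were higher in combination than in vehicle cells, with a median log2 fold change of 0.90 over the 49, against -0.02 over all 15308 genes. Fold changes were positive for 44 of 49, against 48.4% of all genes. Among the role classes, the RNA-binding Ifit genes had the largest median log2 fold change, 2.80, followed by the sparsely counted Mx dynamins at 1.85. The Oas and Oas-like genes, a class that includes makers of the messenger activating RNase L, came next with a median of 1.49. The immunity-related and guanylate-binding GTPases had the smallest, 0.32. None of the 49 passed the edgeR quasi-likelihood test at an adjusted p under 0.05, where 0% of all genes were called, and the lowest adjusted p was 0.218. At an unadjusted p under 0.05, 28 of the 49 were higher, against 4.99% of all genes, and 0 were lower, against 5.53%. Every combination library lay above every vehicle library for 21 of the 49, against 3.38% of all genes, and below every vehicle library for 0, against 2.18%. DESeq2 called 7 of the 49 and 184 of all genes (1.20%), and each of the 7, Rsad2, Epsti1, Ifit3, Oasl2, Bst2, Isg20 and Oas1a, was higher. In the same comparison 11 of 12 tested T and NK cell markers were lower, 7 at an unadjusted p under 0.05, with a median log2 fold change of -3.25, and 10 of 10 B cell markers were lower, 8 at that p. The part of these cells in the values of the 49 genes was not tested beyond the model with neutrophil and B cell shares.

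Rsad2 had 42.7, 44.8, 111 and 91.7 CPM in combination libraries and 13.4, 26.6, 19.8 and 13.2 CPM in vehicle libraries. The groups did not overlap, and combination 3 and 4 stood highest. The fitted log2 fold change of Rsad2, 1.98 ± 0.39 (SE), had an adjusted p of 0.218 in edgeR and of 0.000392 in DESeq2. Epsti1, an interferon-induced gene also known from epithelial and stromal cells, had 57.6, 51.6, 59.2 and 69.0 CPM in combination libraries against 19.3, 28.9, 28.3 and 39.9 CPM in vehicle libraries. These groups did not overlap either, and the combination libraries lay close together. Epsti1 had a log2 fold change of 1.03 ± 0.24 (SE; edgeR adjusted p = 0.218). Bst2 was the steadiest, at 105, 104, 109 and 97.1 CPM in combination libraries against 72.7, 68.7, 56.1 and 82.0 CPM in vehicle libraries. All 4 combination values were above all vehicle values, for a log2 fold change of 0.57 ± 0.15 (SE; edgeR adjusted p = 0.225).

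Among the Oas and Oas-like genes, all 5 were higher at an unadjusted p under 0.05, with a median log2 fold change of 1.49. Oasl2, an OAS-like protein with ubiquitin-like domains, had 114, 121, 212 and 206 CPM in combination libraries against 53.2, 72.7, 57.3 and 49.9 CPM in vehicle libraries, without overlap. Oas1a had 140, 120, 221 and 188 CPM in combination libraries against 62.0, 92.4, 59.8 and 85.5 CPM in vehicle libraries, also without overlap. In both genes combination 3 and 4 were higher than combination 1 and 2. Their log2 fold changes were 1.49 ± 0.38 and 1.16 ± 0.33 (SE; edgeR adjusted p = 0.222 and 0.259). Oas2, with a log2 fold change of 2.95 ± 0.86, ranged from 38.5 to 99.8 CPM in combination and from 0.713 to 19.1 CPM in vehicle libraries. Oas3 and Oasl1 had log2 fold changes of 1.62 and 1.45.

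Of the 4 Ifit genes, all were higher and 2 had an unadjusted p under 0.05. Ifit3 had 17.6, 7.28, 57.9 and 65.1 CPM in combination libraries against 5.08, 7.10, 0.324 and 2.42 CPM in vehicle libraries. The lowest combination value was just above the highest vehicle value. For Ifit3 the fit gave a log2 fold change of 3.31 ± 0.94 (SE; adjusted p = 0.259 in edgeR and 0.0116 in DESeq2). Ifit1, which binds RNA lacking cap methylation, had 7.83, 1.23, 39.1 and 43.4 CPM in combination libraries against 0, 2.17, 13.7 and 2.64 CPM in vehicle libraries, and these overlapped. Ifit2 had the smallest log2 fold change of the class, 0.74 ± 0.64.

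Both Mx genes had few counts, and neither reached an unadjusted p of 0.05. Mx2 had 2.61, 0, 4.42 and 6.00 CPM in combination libraries against 0.689, 1.91, 0 and 0.771 CPM in vehicle libraries. Mx1 had 1.82, 0, 4.42 and 0.909 CPM in combination libraries against 0.344, 0.780, 0 and 0.991 CPM in vehicle libraries. Both overlapped, since combination 2 was at 0, and the log2 fold changes were 1.94 ± 1.74 for Mx2 and 1.75 ± 1.48 for Mx1 (SE).

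Isg15 encodes a ubiquitin-like protein that is joined to other proteins, and Usp18 removes it and dampens receptor signalling. Of the 8 genes of this class, which also holds ubiquitin ligases and PARP proteins, 7 were higher and 6 had an unadjusted p under 0.05. Isg15 had 35.8, 28.7, 62.2 and 47.5 CPM in combination libraries against 13.1, 24.9, 17.96 and 16.2 CPM in vehicle libraries. With no overlap between groups, the log2 fold change was 1.27 ± 0.42 (SE; edgeR adjusted p = 0.297). Usp18 had a log2 fold change of 1.51 and Dtx3l, the ubiquitin ligase that partners Parp9, one of 0.81. Trim25, the ligase acting on RIG-I, had 97.4, 93.9, 90.3 and 80.1 CPM in combination libraries against 85.9, 85.9, 29.2 and 126 CPM in vehicle libraries. These overlapped, the log2 fold change was 0.15 ± 0.30, and without vehicle 3 it was -0.13.

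Of the 5 nucleic acid sensors, 4 were higher, 2 of them at an unadjusted p under 0.05. Those 2 were Ddx58, which encodes the RNA sensor RIG-I, with a log2 fold change of 1.39 ± 0.44, and Dhx58, which encodes the related LGP2, with 0.97 ± 0.36. Dhx58 had 77.4, 49.6, 101 and 95.003 CPM in combination libraries against 36.9, 65.6, 19.8 and 42.7 CPM in vehicle libraries, which overlapped through vehicle 2. Ifih1, the RNA sensor MDA5, had a log2 fold change of -0.24 ± 0.45. Zbp1, a sensor of left-handed nucleic acid, had 25.8, 14.2, 69.5 and 50.4 CPM in combination libraries against 21.6, 11.7, 12.6 and 40.0 CPM in vehicle libraries, and these overlapped.

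Isg20, an exonuclease that degrades RNA, had 69.1, 68.7, 124 and 111 CPM in combination libraries against 28.9, 59.8, 58.7 and 41.2 CPM in vehicle libraries. No values overlapped, and the log2 fold change was 0.98 ± 0.26 (SE; edgeR adjusted p = 0.232). In the membrane class, Ifitm3 averaged 3607 ± 510 TPM in combination and 1995 ± 510 TPM in vehicle libraries. Ifitm3 had 1587, 1442, 2273 and 2175 CPM in combination libraries against 1118, 1328, 743 and 1064 CPM in vehicle libraries. In CPM the groups did not overlap, and the log2 fold change was 0.81 ± 0.28 (edgeR adjusted p = 0.317). Ifi27 had a log2 fold change of 0.99 ± 0.29. Ifi27l2a, its neighbour, ranged from 8.51 to 50.1 CPM in combination and from 9.56 to 97.3 CPM in vehicle libraries, where vehicle 4 was highest. Among the other interferon-induced genes, all 8 were higher, 5 at an unadjusted p under 0.05, including Rtp4, a receptor transport protein, at 1.51 and Ifi44 at 1.58. Ifi35 had 97.8, 140, 130 and 135 CPM in combination libraries against 76.3, 111, 89.1 and 111 CPM in vehicle libraries, which overlapped.

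The immunity-related and guanylate-binding GTPases, which act on vacuoles of intracellular pathogens and are known targets of interferon gamma, had a class median of 0.32. Irgm1 had 119, 135, 135 and 162 CPM in combination libraries against 87.4, 111, 79.7 and 77.3 CPM in vehicle libraries. Here too the groups were separate, and the log2 fold change was 0.63 ± 0.17 (SE; edgeR adjusted p = 0.241). Ifi47 had 75.3, 80.7, 89.5 and 90.5 CPM in combination libraries against 78.7, 104, 113 and 41.5 CPM in vehicle libraries. Those overlapped fully, with a log2 fold change of -0.0049 ± 0.24 (SE), and that of Igtp was 0.06 ± 0.20. Gbp2 and Gbp3 had log2 fold changes of 0.86 and 0.92, both at an unadjusted p under 0.05.

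**Figure D4:**
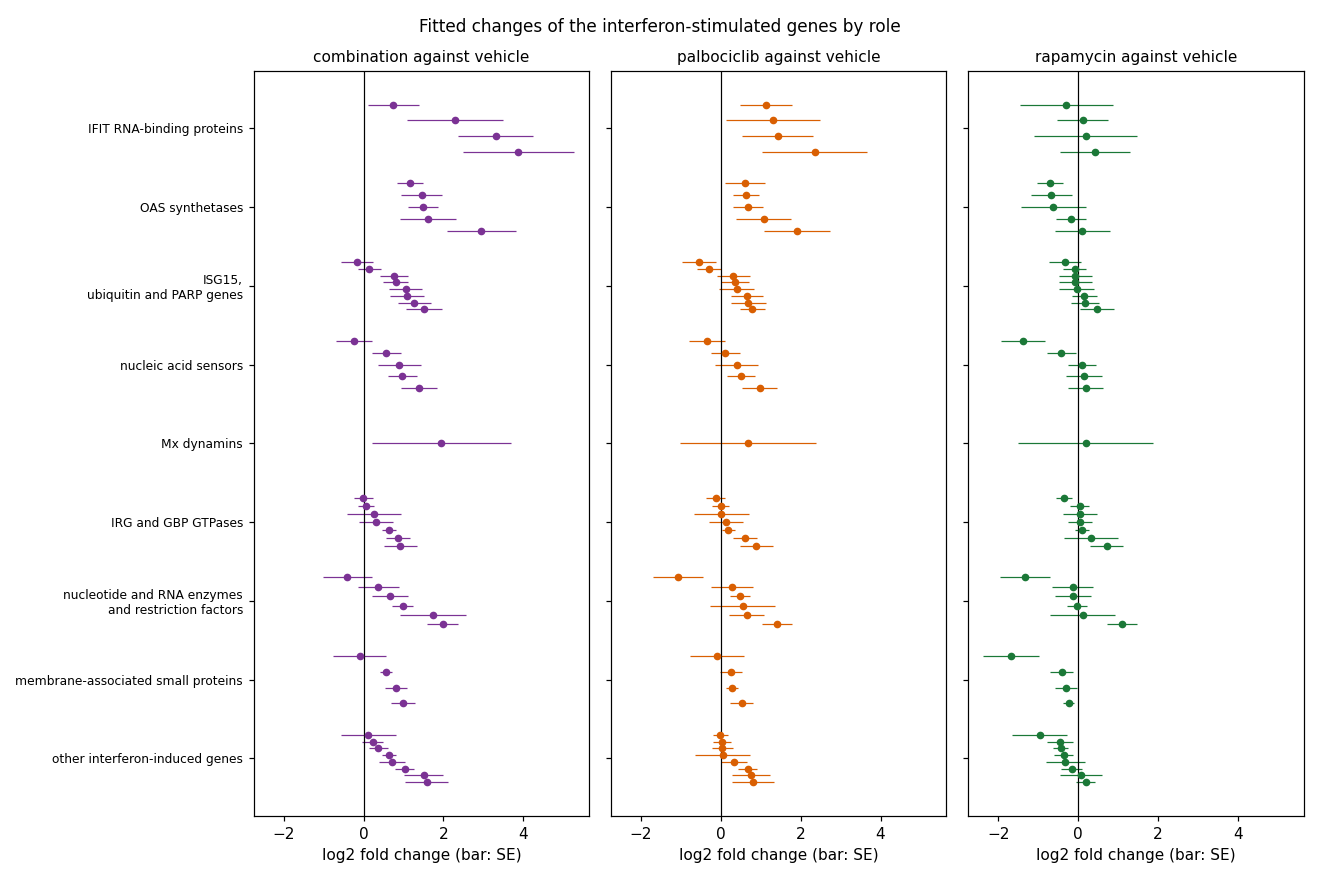
Fitted log2 fold changes against vehicle by role, for combination on the left, palbociclib in the middle and rapamycin on the right, with bars for 1 SE. Mx1 is left out because its rapamycin libraries are all at 0. In combination most points lie right of 0, with the IRG and GBP GTPases nearest to it, and in rapamycin they lie on both sides.

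The second comparison asked about palbociclib alone. The 49 genes had a median log2 fold change of 0.48 against vehicle, with -0.03 over all genes, and 41 of 49 were positive, against 47.8% of all genes. None passed the edgeR test, where 0% of all genes did, and the lowest adjusted p was 0.282. At an unadjusted p under 0.05, 6 were higher (Rsad2, Epsti1, Dtx3l, Oas2, Ddx58 and Gbp3), against 4.36% of all genes, and 0 were lower, against 5.15%. The groups were separate for 0 of the 49, against 2.83% of all genes with higher and 2.21% with lower palbociclib values. DESeq2 called 1, Rsad2, among 114 genes (0.745%). Because vehicle libraries are shared, this comparison and the first are not independent.

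Palbociclib libraries were split for most of these genes. Oas2 had 5.70, 5.73, 66.0 and 61.0 CPM in palbociclib libraries against 4.48, 12.6, 0.713 and 19.1 CPM in vehicle libraries. Palbociclib 3 and 4 were above every vehicle library, and palbociclib 1 and 2 lay within the vehicle range. Its log2 fold change was 1.92 ± 0.83 (SE; edgeR adjusted p = 0.489). Rsad2 had 25.7, 36.0, 76.4 and 55.2 CPM in palbociclib libraries, of which only palbociclib 1 was not above the vehicle maximum of 26.6 CPM, for a log2 fold change of 1.40 ± 0.38 (SE; edgeR adjusted p = 0.282). Epsti1 had 28.5, 44.9, 57.9 and 54.2 CPM in palbociclib libraries, overlapping vehicle through palbociclib 1. Dtx3l had 41.5, 36.0, 85.3 and 57.7 CPM in palbociclib libraries against 34.3, 48.2, 16.1 and 29.1 CPM in vehicle libraries, and the groups overlapped. For 29 of the 49 genes, palbociclib 3 and 4 both exceeded all vehicle libraries, a count not made over all genes. The median over the 49 was 0.26 without palbociclib 3 and 0.27 without palbociclib 4. The count higher at an unadjusted p under 0.05 was 2 without palbociclib 3 and 3 without palbociclib 4, against 3.22 and 3.46% of all genes. The 2 were a share of the 49 near that of all genes. Without palbociclib 1 the count was 16 and without palbociclib 2 it was 14, against 4.38 and 4.62%.

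**Figure D5:**
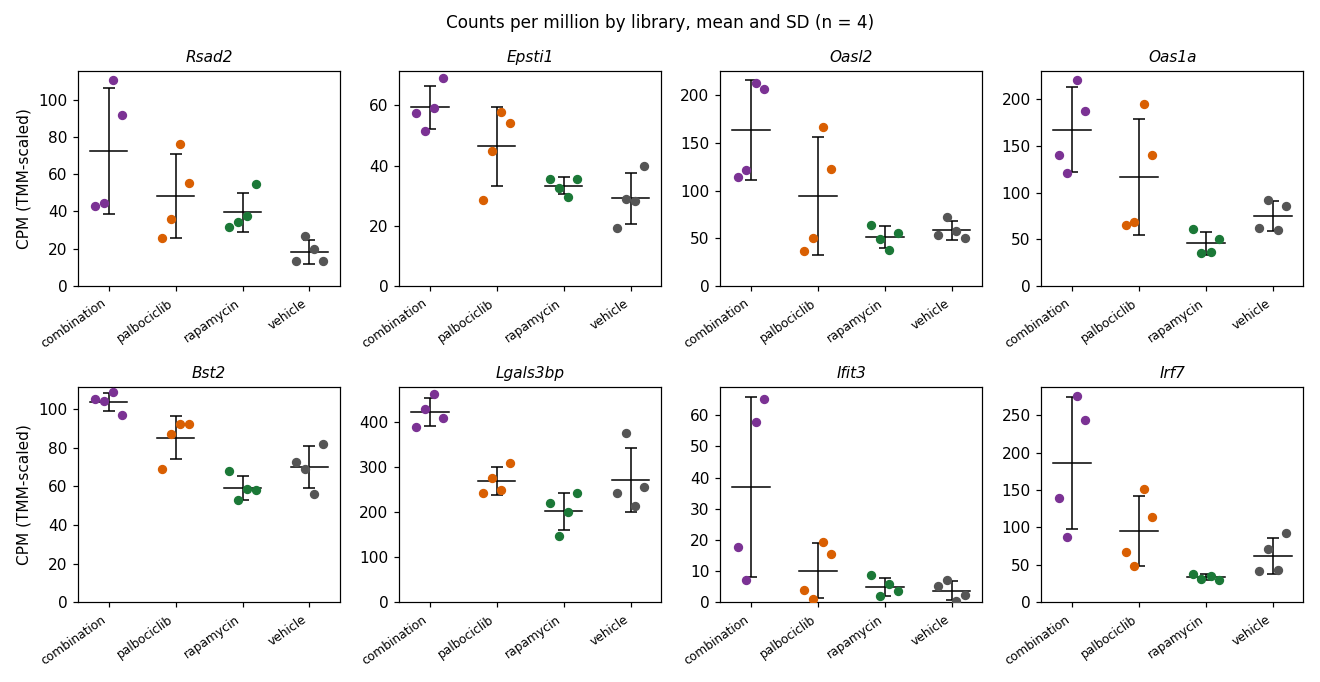
CPM of 7 interferon-stimulated genes and of Irf7 by library, one point each, with the mean as a line and the SD as a bar (n = 4). Palbociclib points lie in a high and a low pair for Oasl2 and Oas1a, combination points lie above all vehicle points except for Irf7, and rapamycin points lie above all vehicle points for Rsad2 alone.

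The third comparison asked about rapamycin alone, and here no general direction was seen. The median log2 fold change was -0.07, against -0.01 over all genes, and 21 of 49 were positive, against 49% of all genes. By role class, 4 of 5 Oas, 4 of 4 membrane and 6 of 8 other interferon-induced genes were lower, with medians of -0.62, -0.35 and -0.34. Of the IRG and GBP genes 6 of 7 were higher, with a median of 0.06, and of the Ifit genes 3 of 4, with 0.15. None of the 49 passed the edgeR test, where 1 gene of all tested (0.00653%) did, and DESeq2 called 0 of the 49 among 86 genes (0.562%). At an unadjusted p under 0.05, 1 was higher, against 3.31% of all genes, and 5 were lower, against 4.34%. The one higher was Rsad2, at 31.5, 34.1, 37.5 and 54.8 CPM in rapamycin libraries against 13.4, 26.6, 19.8 and 13.2 CPM in vehicle libraries. These were separate, as for 1 of the 49 and 1.57% of all genes. Its log2 fold change was 1.11 ± 0.38 (SE; edgeR adjusted p = 0.513). The mean of Rsad2 was thus above that of vehicle in each of the 3 treatments, which share the vehicle libraries. The median over the 49 was negative with each single library left out, and lay between -0.20 without rapamycin 1 and -0.05 without rapamycin 3. It was -0.18 without vehicle 3, -0.17 without vehicle 1, -0.15 without rapamycin 2 and also without rapamycin 4, and -0.12 without vehicle 4. The count of genes higher at an unadjusted p under 0.05 was 2 without vehicle 3, against 4.23% of all genes. With neutrophil and B cell shares as covariates, the median was 0.06, but B cell shares did not overlap between these groups.

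The 5 lower in rapamycin cells at an unadjusted p under 0.05 were Oas1a, Zbp1, Mx1, Ifi27l2a and Lgals3bp. Zbp1 had 8.79, 5.73, 7.50 and 11.1 CPM in rapamycin libraries against 21.6, 11.7, 12.6 and 40.0 CPM in vehicle libraries. All rapamycin values were below all vehicle values, as for 1 of the 49 and 1.5% of all genes, with a log2 fold change of -1.37 ± 0.55 (SE; edgeR adjusted p = 0.571). Ifi27l2a had 7.25, 11.5, 12.6 and 15.2 CPM in rapamycin libraries against 9.56, 25.5, 16.7 and 97.3 CPM in vehicle libraries, with overlap and a log2 fold change of -1.68 ± 0.69. Vehicle 4, the library with the largest B cell share, was the highest vehicle library in both. The covariates for neutrophil and B cell RNA gave log2 fold changes of 0.08 for Zbp1 and 0.10 for Ifi27l2a. B cell shares did not overlap between these groups, at 0.0111 to 0.154% in rapamycin and 0.165 to 3.26% in vehicle libraries. Covariate and treatment thus cannot be told apart here, and the part of B cell RNA was not tested. Mx1 had 0 counts in all 4 rapamycin libraries, against 0.344, 0.780, 0 and 0.991 CPM in vehicle libraries. With a floor of 3 counts over the rapamycin group, pooled Mx1 was at least 28.2-fold higher in combination, 11.8-fold in palbociclib and 8.24-fold in vehicle libraries, bounds that cover counting error only. Single libraries carried much of these counts, 43 of the 76 of the combination group in combination 3 and 17 of the 28 of the palbociclib group in palbociclib 3. The bounds were 15.4-fold in combination without combination 3 and 5.97-fold in palbociclib without palbociclib 3. In vehicle libraries the lowest bound with a single library left out was 6.01-fold, without vehicle 4.

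Adding rapamycin to palbociclib was read by setting combination against palbociclib libraries. Fold changes were positive for 47 of 49 genes, against 49% of all genes, with a median log2 fold change of 0.46. None passed the edgeR test (0% of all genes), DESeq2 called 0 of the 49 among 19 genes (0.124%), and every adjusted p of the 49 in edgeR rounded to 1. At an unadjusted p under 0.05, 4 were higher, against 1.67% of all genes, namely Lgals3bp, Irgm1, Isg15 and Ifit3, and 0 were lower, against 1.18%. The groups did not overlap for 4 of the 49 with higher values, against 2.23% of all genes, and for 0 with lower values, against 1.61%. Lgals3bp had 387, 428, 461 and 409 CPM in combination libraries against 242, 274, 249 and 309 CPM in palbociclib libraries, without overlap and with a log2 fold change of 0.65 ± 0.18. Palbociclib libraries had 89.04, 89.5, 127 and 102 CPM of Irgm1 and 15.5, 10.9, 38.8 and 24.4 CPM of Isg15, so that palbociclib 3 lay within the combination range of both. Ifit3 had 4.01, 1.15, 19.4 and 15.6 CPM in palbociclib libraries, of which palbociclib 3 and 4 lay within the combination range. Stem cell markers differed the same way, with 11 of 12 higher in combination libraries. All 4 combination libraries exceeded palbociclib 1 and 2 for 34 of the 49, which was also not counted over all genes. The count of 4 depended on single libraries. It was 12 without palbociclib 3, 7 without palbociclib 4 or combination 2, and 2 without combination 3. Without combination 4, palbociclib 1 or palbociclib 2 it was 1. Over these settings, 1.16 to 1.87% of all genes were higher at that p.

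The difference was widest between combination and rapamycin libraries, which asked what palbociclib added to rapamycin. The median log2 fold change was 1.07 against -0.02 over all genes, and 45 of 49 were positive, against 48.1% of all genes. None of the 49 passed the edgeR test, where 5 genes (0.0327%) did. At an unadjusted p under 0.05, 29 were higher, against 5.44% of all genes, and 0 were lower, against 4.35%. The groups did not overlap for 21 with higher values, against 4.98% of all genes, and for 0 with lower values, against 3.87%. DESeq2 called 13 of the 49 among 167 genes (1.09%), each higher. Erythroid markers went the other way, with 11 of 13 lower in combination libraries, 6 of them at an unadjusted p under 0.05, and a median log2 fold change of -2.22, and their part in the values of the 49 was not tested. Among the 13 genes called by DESeq2 were 4 of the 5 Oas genes, Lgals3bp, Bst2, Ifitm3, Ifi27 and Ifit3. The edgeR count was 3 without vehicle 3, which is in neither group but shares the estimate of spread, against 0.101% of all genes. It was 1 without palbociclib 1, palbociclib 2, palbociclib 3 or vehicle 2, against 0.0316 to 0.063%. With only the 2 groups in the model it was 7, against 0.4%.

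Lgals3bp came nearest to the threshold, at 387, 428, 461 and 409 CPM in combination libraries against 219, 146, 199 and 241 CPM in rapamycin libraries. The groups stood well apart, with a log2 fold change of 1.07 ± 0.19 (SE; edgeR adjusted p = 0.0616). Oas1a had 140, 120, 221 and 188 CPM in combination libraries against 61.4, 34.8, 36.2 and 50.3 CPM in rapamycin libraries, for a log2 fold change of 1.87 ± 0.33 (SE; edgeR adjusted p = 0.0656). Bst2 had rapamycin values of 67.9, 52.7, 58.5 and 57.8 CPM, all below the combination minimum of 97.1 CPM, and a log2 fold change of 0.81 ± 0.15 (edgeR adjusted p = 0.0745). Ifi27 had 240, 241, 201 and 209 CPM in combination libraries against 96.8, 79.7, 90.2 and 72.8 CPM in rapamycin libraries, with no overlap and a log2 fold change of 1.39 ± 0.29 (edgeR adjusted p = 0.141).

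Whether the drugs together differed from the sum of their separate log2 changes was tested as an interaction. None of the 49 passed the edgeR test (0% of all genes), and DESeq2 called 1, Lgals3bp, among 34 genes (0.222%). The interaction was positive for 43 of 49, against 50.7% of all genes, with a median of 0.70. At an unadjusted p under 0.05, 9 were positive, against 3.29% of all genes, and 0 were negative, against 2.38%. Of the stem cell markers 8 of 12 were positive, 4 of them at that p, and 4 were negative. Of the erythroid markers 12 of 13 were negative, 1 at that p. The part of cell make-up in the interactions of the 49 genes was not tested. Lgals3bp had an interaction of 1.08 ± 0.26 (SE; edgeR adjusted p = 0.471). It averaged 421 ± 31.3 CPM in combination, 269 ± 30.5 in palbociclib, 201 ± 40.6 in rapamycin and 271 ± 71.3 in vehicle libraries (SD, n = 4 each). Vehicle libraries had 241, 375, 214 and 255 CPM of Lgals3bp. The interactions of Oas1a and Bst2 were 1.23 ± 0.46 and 0.52 ± 0.21, where palbociclib libraries had 65.4, 68.01, 195 and 140 CPM of Oas1a and 69.2, 86.98, 92.3 and 92.3 CPM of Bst2. Mx1, also at an unadjusted p under 0.05, had 0.534, 0, 1.80 and 0.485 CPM in palbociclib libraries, and with rapamycin libraries at 0 its fitted interaction depends on the prior count and is not given. The count of 9 was 15 without palbociclib 3, 5 without rapamycin 2, 4 without combination 3, and 3 without palbociclib 1 or vehicle 4. Over these settings, 2.74 to 3.08% of all genes were positive at that p.

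Upstream of these genes, the interferons themselves were at or near the limit of detection. Of 11 ligand genes listed, 8 had 0 counts in all 16 libraries, where 3 counts correspond to 0.194 to 0.329 CPM depending on the library. The other 3 were Ifne at 0.364 CPM in combination 4, Ifnl3 at 0.0744 CPM in rapamycin 2, and Ifng at 0.595 CPM in rapamycin 2 and 1.32 CPM in vehicle 4. Low counts in sorted stem cells do not bear on interferon made by other cells.

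All 11 receptor and signalling genes listed passed the filter on low counts. Ifnar1, a chain of the type I receptor, averaged 135 ± 22.7 CPM in combination, 113 ± 14.8 in palbociclib, 108 ± 9.63 in rapamycin and 131 ± 37.1 in vehicle libraries. Of the 11 receptor and JAK-STAT genes, 2 were higher in combination than vehicle at an unadjusted p under 0.05, against 4.99% of all genes. These were Stat2 at 0.64 ± 0.25 and Irf9 at 0.56 ± 0.26 on the log2 scale. At that p 0 were lower, against 5.53% of all genes, and 0 of the 11 passed the edgeR test.

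Irf7, the interferon-induced factor that amplifies type I interferon production, was not on the list of 49 and was the one gene of these pathway lists that passed the edgeR test. It was higher in combination than in rapamycin cells, at 139, 87.5, 275 and 244 CPM in combination libraries against 38.0, 31.2, 34.8 and 29.4 CPM in rapamycin libraries. The lowest combination value lay far above every rapamycin value, with a log2 fold change of 2.48 ± 0.40 (SE; edgeR adjusted p = 0.0361). The call was lost without combination 1 (adjusted p = 0.0511), combination 3 (0.167) or combination 4 (0.155), though the log2 fold change was then 2.60, 2.23 and 2.33. It was also lost without rapamycin 1 (0.132), rapamycin 2 (0.18), rapamycin 3 (0.128), rapamycin 4 (0.143) or vehicle 2 (0.0516), with log2 fold changes of 2.43 to 2.55. Against vehicle, Irf7 had a log2 fold change of 1.59 ± 0.39 in combination cells (edgeR adjusted p = 0.218), where vehicle libraries had 41.7, 71.2, 42.5 and 92.4 CPM and overlapped through vehicle 4. In rapamycin cells it was -0.89 ± 0.38 (edgeR adjusted p = 0.613), with every rapamycin value below every vehicle value.

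Of the 8 interferon regulatory factors tested apart from Irf9, 2 were higher and 6 lower in combination than vehicle, with a median log2 fold change of -0.38. Irf7 alone was higher at an unadjusted p under 0.05, against 4.99% of all genes, and 4 were lower, Irf2, Irf4, Irf5 and Irf8, against 5.53%. The lowest edgeR adjusted p of the 8 was 0.218, that of Irf7. Irf8, a factor of the monocyte, dendritic and B lineages, had 21.2, 16.4, 19.3 and 11.3 CPM in combination libraries against 41.9, 34.6, 53.0 and 158 CPM in vehicle libraries. The groups did not overlap, and vehicle 4 stood far above the others. Its log2 fold change was -2.07 ± 0.57 (SE; edgeR adjusted p = 0.252). Irf4 and Irf5, also lymphoid and myeloid factors, were highest in vehicle 4, with 55.7 and 91.9 CPM. That library also had the largest share of B cell genes, 3.26%, and of dendritic cell genes, 0.0968% against at most 0.0219% in the others. The part of other cells in the Irf8, Irf4 and Irf5 values was not tested.

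Other interferon-linked genes were mixed. Of 33 tested interferon-stimulated genes outside the 49, 18 were higher and 15 lower in combination than vehicle, with a median log2 fold change of 0.09, and 3 were higher and 3 lower at an unadjusted p under 0.05. Those 3 and 3 stand beside 4.99% of all genes higher and 5.53% lower, which makes them a share of the list near that of genes at large. The 3 higher were Oas1g, Rnf213 and Ifitm1, and the 3 lower were the guanylate-binding Gbp4, Gbp6 and Gbp8. Oas1g, a copy neighbouring Oas1a, had 46.1, 39.3, 93.5 and 75.3 CPM in combination libraries against 13.7, 18.8, 10.1 and 18.6 CPM in vehicle libraries, without overlap. Gbp8 had 1.82, 2.52, 2.16 and 3.36 CPM in combination libraries against 4.65, 5.98, 14.4 and 8.48 CPM in vehicle libraries, also without overlap. Cgas, the DNA sensor that makes cyclic GMP-AMP, had 28.7, 27.3, 36.5 and 33.3 CPM in combination libraries against 7.15, 8.23, 17.5 and 17.1 CPM in vehicle libraries. Those did not overlap, for a log2 fold change of 1.33 ± 0.38 (SE; edgeR adjusted p = 0.259). The 12 genes of class I antigen presentation, which interferon gamma is known to raise, had a median of -0.02 in the same comparison, and 6 were higher.

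Ly6a, an interferon-stimulated gene that encodes Sca-1, one of the proteins stained in the sort, averaged 654 ± 125 CPM in combination, 296 ± 157 in palbociclib, 173 ± 29.9 in rapamycin and 455 ± 411 in vehicle libraries. Combination libraries had 500, 619, 793 and 705 CPM against 204, 191, 158 and 139 CPM in rapamycin libraries, without overlap, for a log2 fold change of 1.92 ± 0.54 (SE; edgeR adjusted p = 0.265). Vehicle libraries had 200, 525, 90.3 and 1006 CPM and spanned both.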

How the data were processed

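RNA of sorted mouse stem cells was measured in 16 libraries made with a low-input kit, as the labels' protocols state. Per the submitters' processing notes, the build was mm10 and the tools included STAR 2.5.3a, RSEM 1.3.0 and SAMtools 1.3. No annotation release was found in the labels. Expected counts of each gene were deposited by the authors, already whole, so rounding changed nothing, and log2(TPM + 1) values, from which TPM was recovered. Symbols came from GENCODE on GRCm38 for 50376 of 50686 IDs, and the other 310 (at most 0.114% of counts) stayed in the tests. Strand was not stated, so overlapping genes may share reads.

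The 49 genes and all other lists were chosen with earlier results of these data known. Genes past filterByExpr (minimum count 10, minimum total 15) were fitted with edgeR 4.0.16 in R 4.3.3 over all 16 libraries, with TMM factors of 0.889 to 1.14, a mean per group and 12 residual degrees of freedom. The dispersion common to all genes was 0.311 (55.8% as a coefficient of variation). Contrasts were tested with the two-sided quasi-likelihood F test, and p-values were adjusted by Benjamini-Hochberg over 15308 genes in each of 6 comparisons. Fold changes and SE are fitted. Mean log2 CPM used a prior count of 2. DESeq2 1.42.0 and limma 3.58.1 gave alternatives. The code was tested on simulated data.

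Values are given per library, for the groups being compared, for the 4 genes of smallest p in each comparison and the 2 genes of highest mean TPM in each role class. The other genes are given by count, range or fold change, and genes of the other pathway lists were named at an unadjusted p under 0.05, up to 4 per list, or for their level. Irf4, Irf5, Irf8, Gbp4, Ly6a and genes named with a fold change only were also singled out after their values were seen. Total counts limit precision far less than the spread between libraries. Within groups, 24 library pairs correlated at 0.843 to 0.958, and chi-square divided by its degrees of freedom was at least 26.1, so none was a repeat. Intervals were not computed.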

Additional observations from a re-analysis of the deposited data

Results flagged for a closer look

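Of 220 groups of 4 libraries examined, 5 held a library far from the other 3, and chance alone sets about 1 in 20 such groups apart. Igtp in rapamycin 2 had 56.7 CPM, against 73.6 to 74.7 CPM in the other rapamycin libraries. Ifit3b in rapamycin 1 had 4.23 CPM, against 0 to 0.595 CPM in the others. Stat2 in combination 3 had 69.2 CPM, against 54.0 to 55.1 CPM in the other combination libraries. Irf8 had 63.5 CPM in palbociclib 1, against 12.2 to 17.3 CPM in the other palbociclib libraries, and 158 CPM in vehicle 4, against 34.6 to 53.0 CPM in the other vehicle libraries. Palbociclib 1 and vehicle 4 also had the highest Irf4 values of their groups, 25.1 and 55.7 CPM.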

How the results depend on the processing

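The number of the 49 genes called moved from 0 under some settings. With DESeq2 it was 7 for combination against vehicle, against 1.2% of all genes, and 1 for palbociclib against vehicle, against 0.745%. It was 13 for combination against rapamycin, against 1.09%, and 1 for the interaction, against 0.222%. For combination against rapamycin it was also 2 without the filter on low counts, against 0.0515% of all genes. The count was 1 with limma-voom (0.0392% of all genes), with limma on log2(TPM + 1) (0.0849%) and on log2(TPM + 0.1) (0.0784%). It was 7 with only the 2 groups compared (0.4%), and 1 with neutrophil and B cell shares as covariates (0.0653%). With single libraries left out it was 0 to 3, against 0 to 0.101% of all genes. DESeq2 size factors gave no call among the 49 in any comparison. Over all genes they gave 5 calls for combination against rapamycin, 3 for the interaction and 1 for rapamycin against vehicle. For the list's median and its positive count, no setting moved the median by more than the 0.49 SD between libraries or the count by over 1.5 times. That bound was larger than the medians of palbociclib against vehicle, 0.48, and combination against palbociclib, 0.46, and than the -0.07 of rapamycin in size. For these 3 it cannot show stability. The palbociclib median was 0.26 without palbociclib 3, and the rapamycin median changed sign with the covariates. Without vehicle 3, vehicle 4 and rapamycin 3, the median for combination against vehicle was 0.99. There, 21 of the 49 were higher at an unadjusted p under 0.05, against 6.83% of all genes. With single libraries left out, that median ran from 0.71 to 1.05.

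Some single genes reversed, Ifi47 and Trim25 from small values but Zbp1 and Ifi27l2a from large ones. Ifi47 in combination against vehicle, -0.0049 in log2 fold change, was 0.041 with limma-voom, 0.15 and 0.16 on log2(TPM + 1) and log2(TPM + 0.1), 0.034 with the replicate block, and -0.23 to 0.17 with single libraries left out, positive without combination 1 or 2 or vehicle 2 or 3. Trim25 in the same comparison ranged from -0.13 without vehicle 3 to 0.44 without vehicle 4. In rapamycin against vehicle, Zbp1 at -1.37 and Ifi27l2a at -1.68 became 0.081 and 0.10 with the covariates. B cell shares did not overlap between those groups. The Irf7 call for combination against rapamycin was lost with limma-voom (adjusted p = 0.0714) and without the 3 libraries named above (0.0981), with log2 fold changes of 2.32 and 2.505 beside 2.48. The cause of these changes was not tested, beyond the smaller number of libraries where some were left out.

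The labels give no meaning to the replicate numbers, and same-numbered libraries did not all deviate together. Their r was -0.21 to 0.35 over 24 pairs, 7 of them above 0.1, against 12 of 72 pairs of other numbers. As a hint from the data and not from the design, 8 of 16 libraries correlated best with one of their own number, numbers 3 and 4 had the highest gene means in both the combination and palbociclib groups, and combination minus palbociclib means of the same number were 1.09, 0.56, 0.34 and 0.45. With the replicate block, the median for combination against vehicle was 0.79 and 0 of the 49 were called. Of the 49, 29 were higher at an unadjusted p under 0.05, against 5.41% of all genes. The block gave 11 calls over all genes for combination against rapamycin, beside 5 without it, and 0 of the 49 in every comparison. With 4 libraries a group and a biological coefficient of variation of 55.8%, spread between libraries limits what can be called.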
